A study of Danio rerio with 2 samples.

Results

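The genes described here are the endosomal sorting, sorting nexin and tetraspanin genes of zebrafish, measured in whole *miR-132* morphants and control morphants. Members were chosen by symbol only: every gene whose name starts with chmp, vps and a number, snx and a number, tspan, tsg101, pdcd6ip, cd9, cd81, cd82 or smpd, or is hgs, stam, stam2 or cd63. Probes were assigned to genes through their RefSeq accessions and a gene table, and 111 of the 12857 genes found in this way were members, with 228 probes. All 111 had a probe well above background on at least 1 array. A further 31 symbols of the gene table carry such a name but matched no probe, among them *smpd1*, *tsg101b* and *cd9a*, and were not analysed here.

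The data were 2 one-colour (Cy3) Agilent arrays. The *miR-132* MO array held total RNA from embryos injected with 8 ng of *miR-132* morpholino, an antisense oligonucleotide directed at this microRNA, and the Ctrl MO array held total RNA from embryos injected with 8 ng of control MO. Both were collected at 3 dpf (days post fertilization). Both groups were kept in 10% Hanks' solution and had the chorion removed with pronase. The general methods of the paper state that phenylthiourea (PTU) was added to this solution against pigment formation. The level of *miR-132* itself was not analysed here. The tissue is labelled embryos, and the number that went into each RNA is not given in the sources used here. With 1 array per group there was no replicate error, so ratios and counts are given as a description of these 2 arrays, with no test and no p-value.

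A morpholino-injected embryo is a mixture of all tissues, and in such a sample fewer cells of a type and less RNA per cell cannot be told apart. Of the transcript spots, 80.3% were well above background on the *miR-132* MO array and 88.0% on the Ctrl MO array, and 0 were saturated. Intensities were divided by the 75th percentile of each array (866 in *miR-132* MO and 731 in Ctrl MO), and the result is called the relative intensity. The log2 ratio sets *miR-132* MO over Ctrl MO and is averaged over the probes of a gene, and 1.5-fold is 0.58 on that scale. For 26 probes with 5 spots each, detected on both arrays, single-spot ratios had an SD of 0.10 at the median and 0.47 at most. This covers noise between spots only.

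Endosomal sorting decides whether a membrane protein is returned to the cell surface or Golgi, degraded, or released on vesicles. The ESCRT complexes gather ubiquitinated cargo and bud it into the lumen of multivesicular endosomes, and when such an endosome fuses with the plasma membrane its inner vesicles are released as exosomes. Alix (*pdcd6ip*) and the tetraspanins CD63, CD9 and CD81 are carried on exosomes and serve as their markers, while neutral sphingomyelinase 2 (*smpd3*) makes ceramide that helps vesicles bud. Sorting nexins and retromer send cargo back from endosomes. The study followed *miR-132* carried from neurons to endothelial cells by exosomes. The comparison here describes transcripts of this machinery in whole *miR-132* morphants and controls, with 1 array each. The arrays do not measure exosome release.

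The machinery as a whole lay close to its control level. The median log2 ratio of the 111 genes was 0.02, with the middle 50% of them between -0.13 and 0.16. Over all 12307 genes measured the median was -0.01, with the middle 50% between -0.24 and 0.18. Of the members, 62 (55.9%) were above 0 and 49 below, against 47.9% of all genes above 0. At least 1.5-fold higher in *miR-132* morphants were 4 members (3.60%), against 3.94% of all genes, and at least 1.5-fold lower were 5 members (4.50%), against 9.95% of all genes. The share of higher members was near that of all genes, and the share of lower members was below it. None of the members, 0 in either direction, reached 2-fold, which 0.999% of all genes did upward and 4.85% downward. The ratio of 40 members (36.0%) was smaller than the median spot SD, as was that of 28.0% of all genes.

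**Figure D1:**
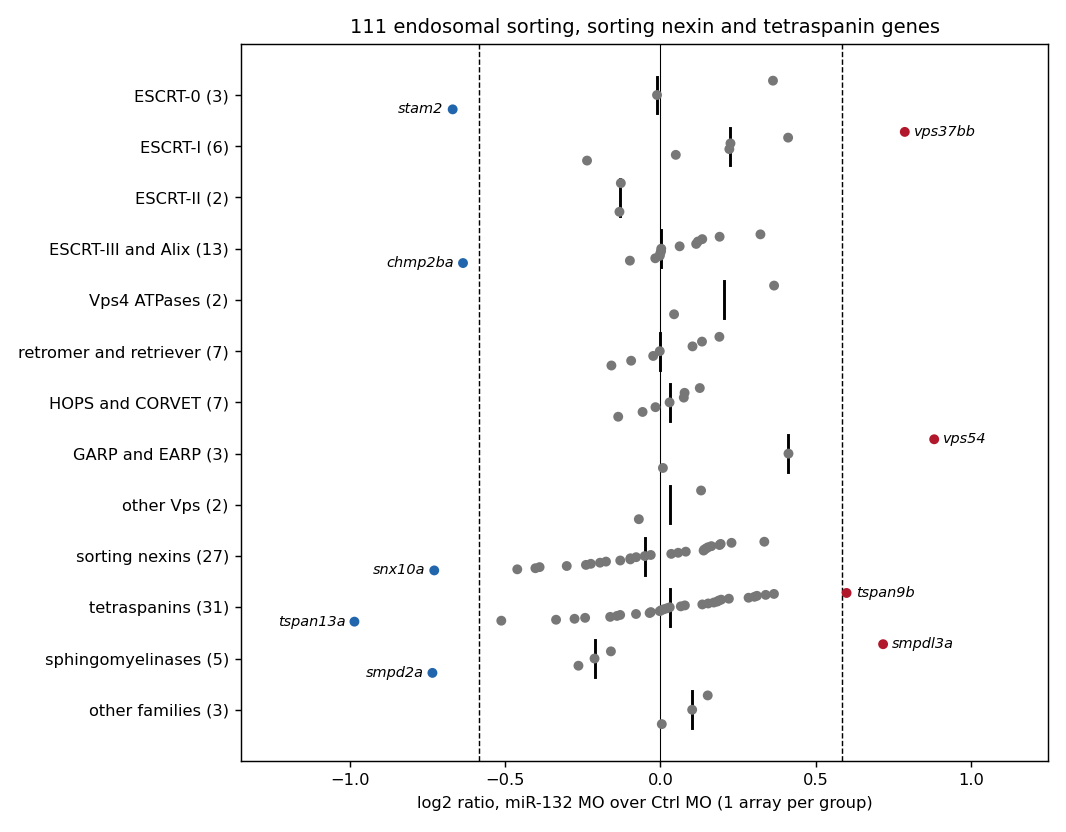
Log2 ratios (*miR-132* MO over Ctrl MO) of each of the 111 genes (points), by role, with the number of genes of a role in brackets, the median of the role as a bar and 1.5-fold as dashed lines. The 4 red points are at least 1.5-fold higher and the 5 blue points at least 1.5-fold lower, and all other points lie between the dashed lines.

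The level of a gene was its log2 relative intensity averaged over both arrays, so a lower reading on 1 array also lowers the level. Of the 9 members past 1.5-fold, 8 lay below the median level of all genes (-1.33). Of these 8, *tspan13a* was close to the cut, at -1.87 in *miR-132* MO and -0.88 in Ctrl MO. Its Ctrl MO value was above the Ctrl MO median of all genes (-1.32). Of the 60 members at or above the median level of all genes, 1 was at least 1.5-fold higher and 0 were lower, against 3.25% and 4.86% of the 6154 genes of that brightness. Of the 51 dimmer members, 3 were higher (5.88%) and 5 lower (9.80%), against 4.63% and 15.0% of the 6153 dimmer genes. In 105 of the 111 members (94.6%), every probe well above background on at least 1 array was so on both, against 90.9% of all genes. Genes above background on 1 array only numbered 563 of the 12307, all of them in the dimmer group, and 0 of the members. The shares of all genes given above include these 563, and their part in those shares was not tested. Of all 228 probes, 9 in *miR-132* MO and 3 in Ctrl MO were not well above background. Those 3 were so on neither array and were left out of the gene means.

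The markers of exosomes differed little. CD63 is a tetraspanin of late endosomes, and the study labelled exosomes with a human CD63-GFP fusion. The single probe of zebrafish *cd63* had a relative intensity of 24.0 in *miR-132* MO and 23.5 in Ctrl MO larvae, a log2 ratio of 0.03. The 4 probes of *pdcd6ip* (Alix), which links ESCRT-I to ESCRT-III, stood at 9.40, 8.31, 0.325 and 0.316 in *miR-132* MO, against 8.17, 8.17, 0.302 and 0.285 in Ctrl MO larvae. All 4 read higher in *miR-132* MO, with ratios between 0.02 and 0.20 and a mean of 0.12. That mean was 0.01 with normexp background correction.

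Both copies of CD81, a tetraspanin that partners with integrins and immune receptors, were slightly above 0. The mean ratio was 0.19 for *cd81a*, with its 3 probes between 0.12 and 0.30, and 0.07 for *cd81b*, with its 2 probes at -0.01 and 0.14. For CD82, a tetraspanin known in mammals as a suppressor of metastasis, *cd82a* was at 0.18 and *cd82b* at 0.30. Of these 4 genes, *cd82b* was the one furthest from its control level, with relative intensities of 1.51 and 0.238 in *miR-132* MO, against 1.26 and 0.188 in Ctrl MO larvae.

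*cd9b*, a copy of the tetraspanin CD9, went the other way. Its 2 probes were at 7.96 and 2.11 in *miR-132* MO, against 9.49 and 2.47 in Ctrl MO larvae, and their ratios of -0.25 and -0.23 differed by less than the spot SD. *cd9r*, a further gene with a CD9 name, was at -0.14 with its 3 probes between -0.28 and -0.03. All of these exosome tetraspanins and *pdcd6ip* were under 1.5-fold.

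**Figure D2:**
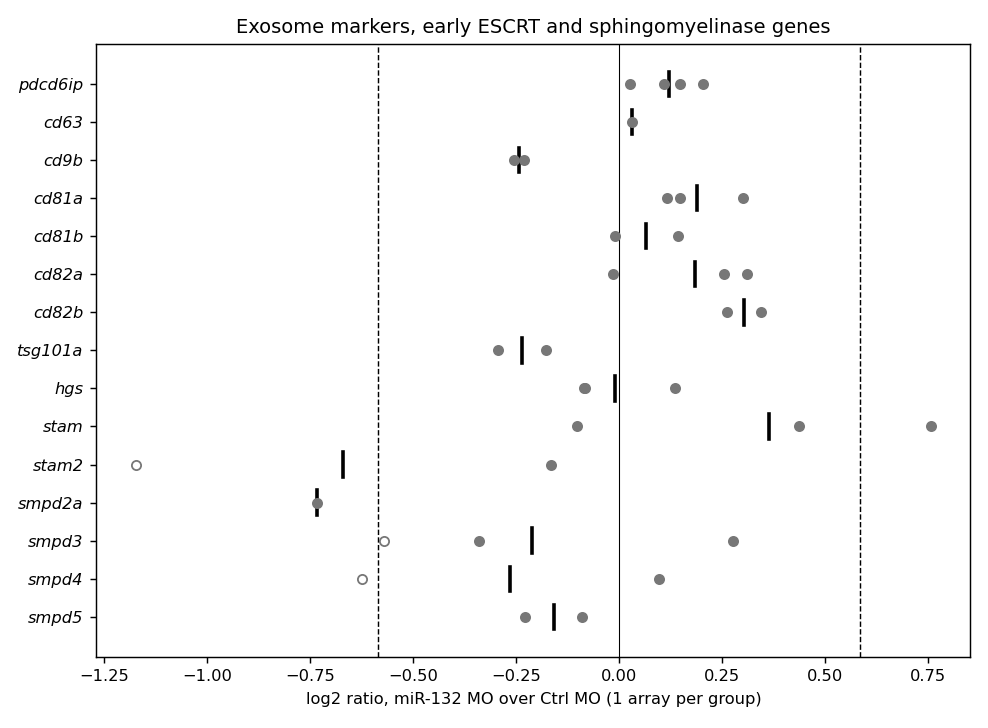
Log2 ratios (*miR-132* MO over Ctrl MO) of each probe (points) of 15 exosome, early ESCRT and sphingomyelinase genes, with the gene mean as a bar and 1.5-fold as dashed lines. Open points are probes well above background on 1 array only. The means of *stam2* and *smpd2a* lie below the lower dashed line, and that of *stam2* rests on an open point.

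Sphingomyelinases split sphingomyelin into ceramide and phosphocholine. Of 5 genes with a sphingomyelinase name, 4 had ratios below 0 and the median was -0.21. By at least 1.5-fold 1 was lower and 1 higher, against 9.95% and 3.94% of all genes. The higher one, *smpdl3a*, is a sphingomyelinase-like gene, and the 4 below 0 were the others. The lower gene was *smpd2a*, a neutral sphingomyelinase. Its single probe was at 0.114 in *miR-132* MO and 0.189 in Ctrl MO larvae, a ratio of -0.73 (1.66-fold). It stayed past 1.5-fold in all 9 other settings of the processing, between -0.75 and -0.59.

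*smpd3* encodes neutral sphingomyelinase 2, the enzyme that the study inhibited with a drug or knocked down to reduce exosome release. Its mean ratio was -0.21, and its 3 probes did not point the same way, at -0.34, 0.28 and -0.57. All were dim, with processed intensities of 59.5, 21.7 and 11.1 in *miR-132* MO and 63.6, 15.1 and 13.9 in Ctrl MO larvae, and the last was not above background in *miR-132* MO. No direction can be given for this gene at this signal. *smpd4*, a neutral sphingomyelinase of the nuclear envelope and endoplasmic reticulum, also had probes of opposite sign, at 0.10 and -0.62, and the probe at -0.62 was not above background in *miR-132* MO. *smpd5*, a mitochondrial form, was at -0.16.

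*smpdl3a*, an acid sphingomyelinase-like enzyme known in mammals to cleave nucleotides, was 1.64-fold higher. The probe counted read 0.0367 in *miR-132* MO and 0.0223 in Ctrl MO larvae, a ratio of 0.72. These are processed intensities of 31.8 and 16.3, near the lowest values called well above background (16.8 in *miR-132* MO and 7.17 in Ctrl MO). With normexp background correction the ratio was 0.13.

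The early ESCRT complexes recognise cargo. ESCRT-0 is made of Hgs and a Stam protein, which bind ubiquitin on the endosome. *hgs* was at -0.01 over 3 probes, *stam* at 0.36 and *stam2* at -0.67. The probes of each Stam gene differed widely. The brightest probe of *stam2* stood at 1.35 in *miR-132* MO and 1.51 in Ctrl MO larvae, a ratio of -0.17. Its dim probe, at 0.0211 and 0.0476, was not above background in *miR-132* MO and gave -1.17, so the 1.59-fold lower mean of *stam2* rested on that dim reading. The 3 probes of *stam* were at -0.10, 0.44 and 0.76, with the brightest at -0.10.

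ESCRT-I takes over cargo from ESCRT-0. Of its 6 genes 5 were above 0, as were 47.9% of all genes, and the median was 0.22. *vps37bb*, a subunit gene, was 1.73-fold higher, with its probe at 0.208 in *miR-132* MO and 0.120 in Ctrl MO larvae (ratio 0.79). With normexp background correction the ratio was 0.30, under 1.5-fold. Its copy *vps37ba* averaged 0.41, but its brighter probe was at 0.03 and its dimmer one at 0.79. *vps37a* was at 0.22, *vps28* at 0.23 and *vps37c* at 0.05. *tsg101a*, the ubiquitin-binding subunit, was the exception at -0.24, and both of its probes were lower, at 1.39 and 0.786 in *miR-132* MO against 1.71 and 0.889 in Ctrl MO larvae. Its mean was -0.07 with normexp background correction. The 2 ESCRT-II genes of the set, *vps25* and *vps36*, were both at -0.13. A further ESCRT-II gene that the symbols do not cover, *snf8*, was at 0.11.

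ESCRT-III forms the filaments that pinch vesicles off, and Vps4 is the ATPase that takes them apart. Of 13 ESCRT-III and Alix genes 8 were above 0 and the median was 0.00. At least 1.5-fold higher were 0 and lower 1 (7.69%), against 3.94% and 9.95% of all genes. The lower gene was *chmp2ba*, at 0.0308 in *miR-132* MO and 0.0479 in Ctrl MO larvae. Its ratio was -0.64 (1.55-fold), from processed intensities of 26.7 and 35.0. It was under 1.5-fold in 4 of the 9 other settings, with its smallest ratio at -0.39. The copy *chmp2bb*, measured by 5 bright probes between -0.15 and 0.28, averaged 0.00. The core filament genes *chmp4ba*, *chmp4bb* and *chmp4c* were at 0.00, 0.13 and 0.00, and *chmp3*, the highest of the class, at 0.32. *vps4a* was at 0.37, with both probes higher (0.48 and 0.26), and *vps4b* at 0.04.

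Retromer returns receptors from endosomes to the Golgi and cell surface, and its genes stayed close to 0. The 7 genes of retromer and the related retriever lay between -0.16 (*vps26b*) and 0.19 (*vps26bl*). *vps35*, the backbone subunit of retromer, was at 0.13, *vps29* at -0.02 and *vps26a* at 0.00, and the retriever genes *vps26c* and *vps35l* were at 0.10 and -0.09. The HOPS and CORVET complexes tether endosomes and lysosomes before they fuse. The 7 genes grouped with them here by name, *vps33b* included, lay between -0.14 (*vps11*) and 0.13 (*vps33a*). At least 1.5-fold higher were 0 of them and lower 0, against 3.94% and 9.95% of all genes.

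The GARP and EARP complexes receive endosome-derived vesicles at the Golgi and recycling endosomes. All 3 genes measured were above 0, as were 47.9% of all genes. *vps54*, the subunit particular to GARP, had the highest ratio of all members, 0.88 (1.84-fold), but from a single dim probe: 0.0348 in *miR-132* MO and 0.0189 in Ctrl MO larvae, processed intensities of 30.1 and 13.8. With normexp background correction it was 0.10. *vps51*, a shared subunit, was at 0.41 on 1 probe. *vps53*, another shared subunit, was at 0.01, with its brighter probe at -0.10 and its dimmer one at 0.12. With normexp background correction *vps53* was at -0.12. Of the remaining Vps genes, *vps13a*, which moves lipids between membranes, averaged -0.07 over 5 probes and *vps9d1* was at 0.13.

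**Figure D3:**
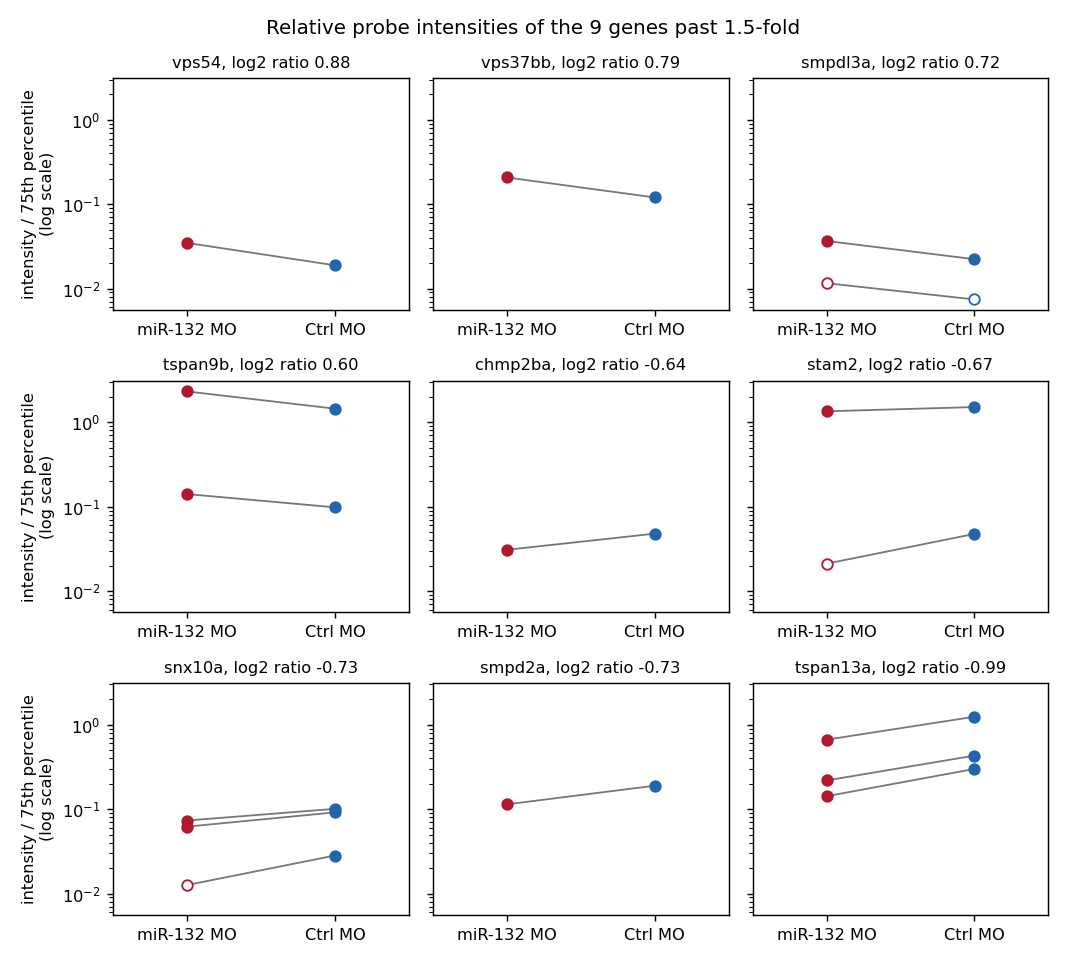
Relative intensity (intensity over the 75th percentile of its array, log scale) of each probe of the 9 genes past 1.5-fold, *miR-132* MO left and Ctrl MO right, with a line joining the readings of 1 probe. Filled points are well above background and open points are not. All 3 probes of *tspan13a* slope the same way, while *stam2* has a flat bright probe and a sloping dim one.

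The sorting nexins carry a PX domain that binds phosphoinositides on endosomes, and many also bend the membrane. Of the 27 measured, 12 were above 0 and 15 below, with a median of -0.05. At least 1.5-fold higher were 0 and lower 1 (3.70%), against 3.94% and 9.95% of all genes. *snx10a*, a gene of the group tied in mammals to the acidifying proton pump, was the sole sorting nexin past 1.5-fold, at -0.73 (1.66-fold lower). Its 2 brighter probes were at 0.0732 and 0.0620 in *miR-132* MO, against 0.101 and 0.0915 in Ctrl MO larvae. Their ratios of -0.46 and -0.56 were each under 1.5-fold. The third, at -1.16, was not above background in *miR-132* MO, and without it the mean was -0.51. Its copy *snx10b* was at -0.40, also with a dim probe. *snx19a* was at -0.46 on 1 probe with processed intensities of 31.5 and 36.5.

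The nexins that work with retromer cargo were under 1.5-fold, with *snx5* furthest from its control level. *snx1a* was at -0.10, *snx1b* at -0.03, *snx2* at 0.06, *snx6* at 0.14 and *snx5* at 0.33. All 3 probes of *snx5* were higher, at 2.30, 0.538 and 0.157 in *miR-132* MO against 1.93, 0.433 and 0.116 in Ctrl MO larvae. *snx27a* and *snx27b*, which recycle receptors through a PDZ domain, were at 0.23 and 0.08, and *snx3*, which sorts the Wnt carrier Wntless, at 0.15. Among the nexins of endocytosis, *snx9a* was at -0.39 and *snx9b* at 0.19, and *snx18a* and *snx18b* at -0.08 and -0.30. The probes of *snx18a* had opposite signs, at 0.24 and -0.40. The brighter probe of *snx18b* was at -0.11, and its dimmer one, at -0.50, was not above background in *miR-132* MO.

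The tetraspanins, which cross the membrane 4 times and gather other proteins into patches, formed the largest group. Of 31, 19 were above 0 and 12 below, with a median of 0.03. At least 1.5-fold higher was 1 (3.23%) and lower 1 (3.23%), against 3.94% and 9.95% of all genes. *tspan13a* differed most of all members. Its 3 probes stood at 0.665, 0.219 and 0.142 in *miR-132* MO, against 1.24, 0.431 and 0.299 in Ctrl MO larvae. Each probe was lower in *miR-132* MO by nearly the same ratio (-0.90, -0.98 and -1.07), and their mean was -0.99 (1.98-fold lower). All were well above background on both arrays, and the ratio was -0.76 or lower in all 9 other settings of the processing. The copy *tspan13b* was at -0.13, with its 2 bright probes at -0.29 and -0.21 and its dimmer one at 0.10.

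*tspan9b*, named for a tetraspanin of mammalian platelets, was at 0.60 (1.52-fold higher) and was the other tetraspanin past the threshold. Its 2 probes were at 2.32 and 0.141 in *miR-132* MO, against 1.45 and 0.0982 in Ctrl MO larvae. It is the 1 brighter member past 1.5-fold, and its ratio was 0.55 with normexp background correction, under the threshold. Just under 1.5-fold was *tspan34b* at -0.51, with all 3 probes lower (-0.49, -0.33 and -0.72). *tspan7*, a tetraspanin of neurons in mammals, averaged 0.34, but its bright probe was at -0.15 and its dim one at 0.83. *tspan36*, a pigment cell tetraspanin of zebrafish, was at 0.13, and *tspan12*, which aids Norrin signalling in the retinal vessels of mammals, at -0.16.

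Some tetraspanins that the symbols above do not cover showed larger differences. Of 8 tetraspanins under other symbols measured among 11 listed, 5 were at least 1.5-fold lower and 0 higher. Over all genes the shares were 9.95% lower and 3.94% higher. Of these 5, all but *cd37* were photoreceptor disc genes. *prph2a* and *prph2b*, peripherins of the photoreceptor disc rim, were 3.06-fold and 3.13-fold lower in *miR-132* MO (ratios -1.61 and -1.65), and their partners *rom1a* and *rom1b* were at -1.08 and -1.17. Not all probes of *rom1a* were above background on both arrays. The photoreceptor markers *rho*, *gnat1*, *gnat2* and *rcvrna* were lower as well, between -1.59 and -1.03, while *crx* was at 0.35. The part of photoreceptor content in these ratios was not tested. *cd37*, a leukocyte tetraspanin, was at -0.60 from a probe not above background in *miR-132* MO, whereas *cd151* and *cd151l*, partners of laminin-binding integrins, were at 0.43 and 0.28 and *upk1a* at -0.10.

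**Figure D4:**
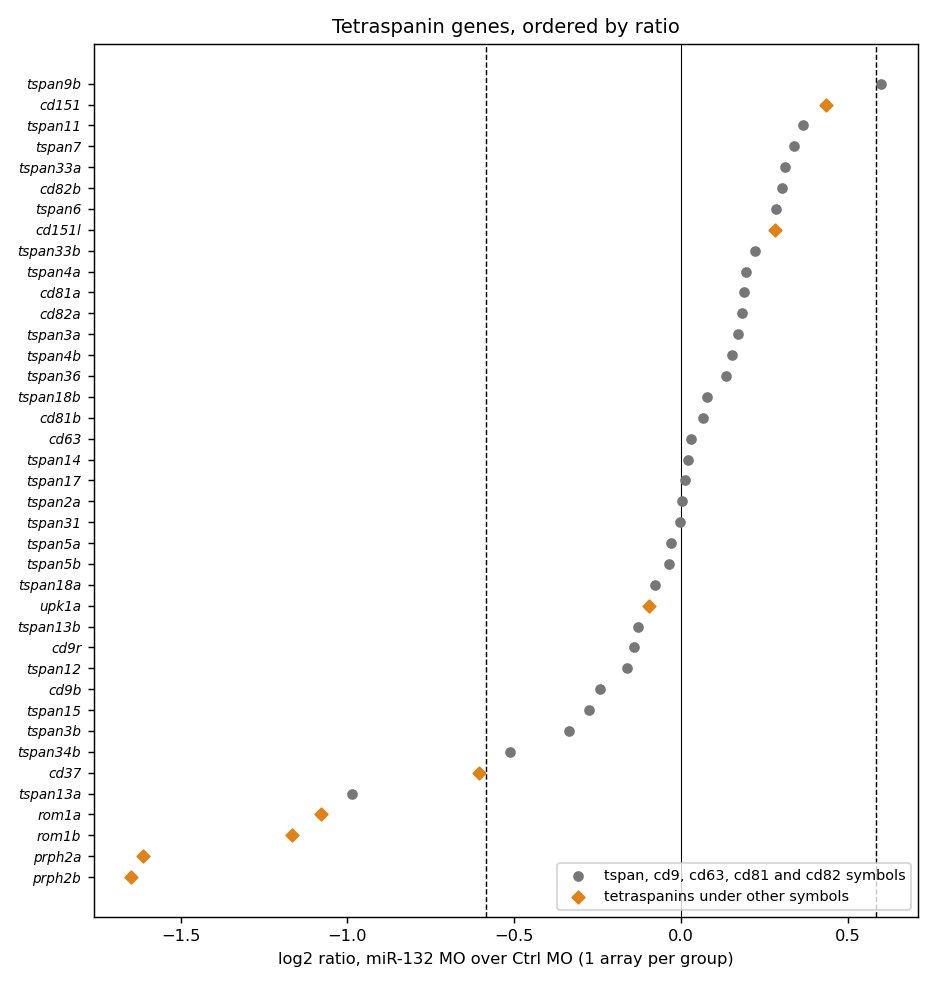
Log2 ratios (*miR-132* MO over Ctrl MO) of 39 tetraspanin genes, ordered by ratio, with 1.5-fold as dashed lines. Circles are genes of the set and diamonds are tetraspanins under other symbols. The 4 lowest are *prph2b*, *prph2a*, *rom1b* and *rom1a*, followed by *tspan13a*.

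Other cell type markers were present on both arrays and moved in different directions. The neuronal markers *elavl3*, *elavl4*, *snap25a* and *stmn2a* lay between -0.34 and 0.10, and the endothelial markers *kdrl* and *cdh5* were at -0.35 and -0.32. Not all probes of *kdrl* were above background on both arrays, and *cdh5* had 1 probe. The other endothelial markers listed, *fli1a* and *pecam1*, matched no probe. Of the 3 muscle markers, *acta1b* was lower at -1.60, while *ckma* was at 0.40 and *myhz2* at -0.24, and the blood and notochord markers were all under 1.5-fold. The 4 exocrine pancreas markers measured were between -5.18 and -2.74, and the liver marker *fabp10a* was at -3.68. The skin keratins *krt4* and *krt5* were higher, at 0.66 and 0.77. Of the 4 leukocyte markers, *coro1a* was higher at 0.78, while *lyz* was at 0.50, *mpeg1.1* at 0.29 and *mpx* at -0.15. The ratios of the members were not corrected for such differences, and their part in them was not tested.

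Zebrafish keep duplicate copies of many genes, and 21 pairs of close relatives lay within the set, some of them older pairs such as *vps4a* and *vps4b*. Their ratios differed by a median of 0.16, and 8 pairs had opposite signs. In 2 pairs the ratios differed by over 1.5-fold. *tspan13a* was 0.86 below *tspan13b*, and *chmp2ba*, whose readings were near background, was 0.64 below *chmp2bb*. *snx9a* lay 0.58 below *snx9b*, and *tspan3b* at -0.34 lay 0.51 below *tspan3a* at 0.17. The closest pair was *tspan5a* and *tspan5b*, both at -0.03.

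**Figure D5:**
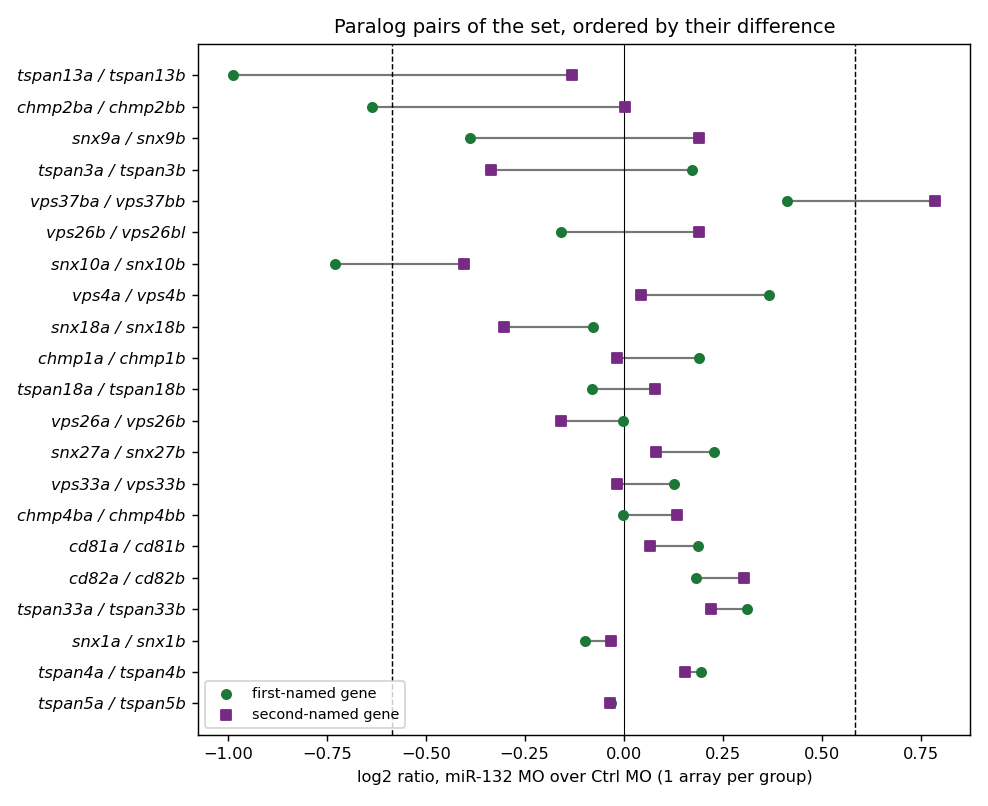
Log2 ratios (*miR-132* MO over Ctrl MO) of both genes of 21 paralog pairs (circle for the first name, square for the second), ordered by their difference, with 1.5-fold as dashed lines. The longest line joins *tspan13a* and *tspan13b*, and the lines of 8 pairs cross 0.

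Probes of 1 gene served as a check within the arrays. Over the 72 members with 2 or more probes, the range of the probe ratios had a median of 0.22, against 0.26 over 7188 genes. In 35 of the 72 all probes had the same sign, and in 11 the range was over 0.58, most of all in *stam2* (1.01), *tspan7* (0.97), *stam* (0.86) and *smpd3* (0.85). A further 39 members had 1 probe. Of the 9 members past 1.5-fold, *vps54*, *vps37bb*, *smpdl3a*, *chmp2ba* and *smpd2a* rested on 1 probe, and *tspan13a* was the only one with several probes that each passed.

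Genes of the same pathway that the symbols do not cover were listed for context. Of 19 listed endosome and exosome genes 16 were measured, 11 of them above 0, with a median of 0.11 against 0.02 for the members. At least 1.5-fold higher were 0 and lower 1 (6.25%), against 3.94% and 9.95% of all genes. The lower gene was *sdcbp* (syntenin), an adaptor that couples Alix to syndecans in exosome formation, at -0.59 (1.51-fold) on 1 probe. The ESCRT subunits and partners *snf8*, *vta1*, *ist1*, *mvb12a* and *mvb12ba* lay between 0.11 and 0.23, and *mvb12bb* was at -0.03. The raft proteins *flot1a* and *flot2a* were at 0.35 and -0.38, and the lysosomal membrane genes *lamp1a* and *lamp2* at -0.04 and -0.29. Lastly, 3 members carry a matching name but belong to other families: *cd99* and *cd99l2*, adhesion glycoproteins, at 0.15 and 0.00, and *vps72a*, a chromatin protein, at 0.10.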

How the data were processed

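The authors deposited, for each of the 2 arrays, the spot intensity as Agilent Feature Extraction 10.7 wrote it: background-subtracted and detrended within the array, not normalized between arrays. The flags (other values) per the file headers mark spots well above background, saturated or not uniform. A rounded copy of these intensities and the authors' table of probes selected by their own fold change, with their normalized signals and ratios, were not used. The header names build Zv8, so no coordinates are given.

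Spots flagged as outliers were left out, log2 processed intensity was averaged over the spots of a probe, and each array was scaled to its own 75th percentile over 43803 spots that are not controls. Probes well above background on at least 1 array were kept and averaged per gene. Of 43599 probes, 25067 had a RefSeq accession, compared without version, in the GRCz12tu gene table. The files hold no gene name column, so no probe was matched by name. The members, lists and rules were chosen with earlier results of these data known. Named were all members past 1.5-fold, the exosome, ESCRT-0, Tsg101 and sphingomyelinase genes, and the highest and lowest member of each role above background on both arrays. Others (such as *tspan13b*, *tspan7*, *tspan34b*, *vps51*, *chmp2bb* and *snx9a*) were added after their values were seen.

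Alternatives were quantile normalization, intensity loess (span 0.3), median and spike-in (7 probes) scaling, normexp with an offset of 50 on the median signal, other filters on dim probes, the brightest probe, a 2-fold threshold and every probe past the threshold. Setting the dim side to the lowest intensity above background was added after the data were seen. The functions were tested on a copy of the Ctrl MO array with planted changes well past 1.5-fold and noise that did not depend on intensity. That did not test calls near the threshold or of dim probes. Normexp ran in limma 3.58.1 under R 4.3.3, loess in statsmodels 0.14.6, and all else in Python 3.11.15 with numpy 2.4.6 and pandas 2.3.3. Plots were drawn with matplotlib 3.10.9. The number of arrays limits the precision.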

Additional observations from a re-analysis of the deposited data

How the results depend on the processing

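The counts of 4 higher and 5 lower members moved by more than 1.5 times under 5 settings. With normexp background correction they were 0 and 2, the 2 being *smpd2a* and *tspan13a*, and with a 2-fold threshold 0 and 0. The lower count was 3 with both arrays above background, with the brightest probe and with every probe past 1.5-fold, where the higher count was also 3. In each of these 3 *stam2* and *snx10a* were the lower genes lost, and the means of both include a probe not above background in *miR-132* MO. The lower count was 4 with quantile normalization, intensity loess and spike-in scaling, without *chmp2ba*, and with the dim side at the background limit, without *snx10a*. Of the 9 members, 2 were past 1.5-fold in all 9 alternatives that recompute ratios, and 0 other members passed in any of them. Of 81 values of the 9 members under these alternatives 15 were under 1.5-fold and 0 changed sign. Of 342 values of the 38 genes named by the rule, 45 moved by more than the median spot SD. The median of the members lay between 0.00 and 0.09. Spike-in scaling shifts every ratio by 0.07, so it moved the medians of the members (0.09) and of all genes (0.06) together. The offset of 50 that normexp adds to each signal exceeds the processed intensities of *vps54*, *smpdl3a* and *chmp2ba*. By construction such an offset shrinks the ratios of dim probes. Genes whose probes all read above 50 moved with normexp as well. *vps37bb* went from 0.79 to 0.30, *pdcd6ip* from 0.12 to 0.01 and *tsg101a* from -0.24 to -0.07. By contrast, *tspan9b* moved little, from 0.60 to 0.55. The part of the offset in the changes with normexp was not tested. No paired analysis was possible because *miR-132* MO and Ctrl MO had 1 array each. The setting with RefSeq accessions only is the main one, since no other name is in the files, and was not run separately.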
